A study of Mus musculus with 6 samples.

Results

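Cadherins and protocadherins are cell adhesion proteins of the cadherin superfamily, and the genes described here are those whose symbol in the deposited comparison table was Cdh followed by a number, or began with Pcdh. The rule took the array maker's symbol column and found 51 genes among 32227 genes and unnamed probes on the array, with 64 probes in all. Each gene was read from 1 probe, the one with the highest mean log2 processed signal over the 6 arrays. Of the 51 genes, 22 belong to the clustered protocadherins (4 alpha, 13 beta and 5 gamma genes) and 29 do not.

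Transcripts of the dorsal forebrain were profiled on 1-colour arrays, each from 1 mouse embryo at E11.5, for 3 mutant and 3 control embryos. The mutant group is given in the labels only as a genotype or variation called mutant, and the control group as control, with no mutated gene, allele, driver line or strain named. The dissected tissue was the dorso-medial pallium per the design text, and both groups came from time-mated mice. The series title sets the comparison within Wnt/beta-catenin signalling in precursors of the cortex. Mutant 1 and control 1 were littermates, as were mutant 2 and control 2, and mutant 3 and control 3. Both arrays of litter 1 were on slide 1 and the 4 arrays of litters 2 and 3 on slide 2, so that slide and litter 1 cannot be told apart.

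Classical cadherins bind the same or a related cadherin on a neighbouring cell through calcium-dependent extracellular repeats, and their cytoplasmic tails recruit p120-catenin and beta-catenin, which links them to alpha-catenin and actin. In the embryonic cortex they hold radial glia together at the ventricular surface, and differences in cadherin repertoire keep neighbouring forebrain territories from mixing. Clustered protocadherins lie in a tandem array in which each variable exon has its own promoter, neurons choose a few of these promoters each, and in the alpha and gamma clusters the variable exon is spliced to constant exons shared by the whole cluster. Non-clustered delta protocadherins bind weakly and act in cell sorting, migration and axon growth.

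Every mutant array lay below every control array in signal. The share of spots well above background lay between 65.75% and 67.9% on the mutant arrays and between 68.68% and 70.1% on the control arrays, no spot was saturated, and the 75th percentile of the signal was 1207 to 1380 in mutants against 1446 to 1833 in controls. After scaling by that percentile, signals near background sat higher in mutants. The 10141 probes that were well above background on no array had a median difference of 0.55, and lay 0.82, 0.53 and 0.29 above the control mean in mutants 1, 2 and 3. All 8 dorsal forebrain markers were well above background on all 6 arrays, and Nkx2-1, which marks the ventral forebrain, on 0. Their levels were not alike in the groups: without overlap, the transcription factors Emx2, Emx1 and Lhx2 were lower in mutants by differences of -0.92, -0.81 and -0.58, and Pax6 and the radial glial gene Fabp7 higher by 0.33 and 1.39, with 0 of the 8 past the adjusted test. Of 8 choroid plexus and hem markers 5 were tested, with a summed level (linear signal over the array's 75th percentile, added over the list) of 4.15, 2.58 and 0.676 in mutants 1 to 3 against 0.985 to 1.40 in controls, and the part of these lists in the members' values was not tested. Dlx2, a homeobox gene of the subpallium, was at 2.16, 1.58 and 2.74 in mutants and at 1.87, 1.58 and -1.27 in controls, so that control 3 stood apart from the other 5 arrays. Levels are log2 signals relative to the array's 75th percentile, differences are mutant minus control on the log2 scale with their standard error (SE), and 3 arrays a group limit the precision of every value.

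All 51 genes passed the filter on dim probes, which asked that the signal exceed background clearly on 3 or more of the 6 arrays, and 44 of them were well above background on all 6. The table from which they were chosen holds only probes that its authors kept, and 19 further cadherin genes known by accession on the array, outside that table, had 0 probes past the filter. A gene can pass through 1 group alone, so counts over these genes are no support for a difference. Of the 51 genes, 0 passed the test over all 21334 rows (limma, Benjamini-Hochberg adjusted p under 0.05), where 7 rows passed, or 0.0328%, and with litter as a block 0 rows passed. The smallest adjusted p among them was 0.104, for Cdh6. At an unadjusted p under 0.05, 13 of the 51 genes were higher in mutants, against 9.44% of all rows, and 1 was lower, against 7.41% of all rows. The same numbers, 13 higher and 1 lower, had mutant and control values that did not overlap, against 12.9% and 11.9% of all rows. Together these were 14 genes at that threshold (16.8% of all rows in either direction), a count that became 24 without mutant 1, 7 without mutant 2, 7 without mutant 3 and 9 without control 3. Higher among them were 23, 6, 5 and 8 genes, against 12.6%, 6.93%, 8.27% and 5.1% of all rows in these settings. Lower were 1, 1, 2 and 1, against 8.69%, 6%, 6.47% and 3.95%. With no filter on dim probes 10 of the 51 were higher, against 20.4% of all rows. The 7 rows past the adjusted test became 0 or 1 without any 1 embryo.

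The difference was above 0 for 43 of the 51 genes, 84.3%, against 55% of all rows, and its median was 0.26 against 0.02 over all rows, but with quantile normalization or the authors' log2 values only 37 of 51 lay above 0. Among the 5334 dimmest rows the median difference was 0.15 and 67% lay above 0. These genes share arrays, and many share a locus, so they are not replicates of each other.

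**Figure D1:**
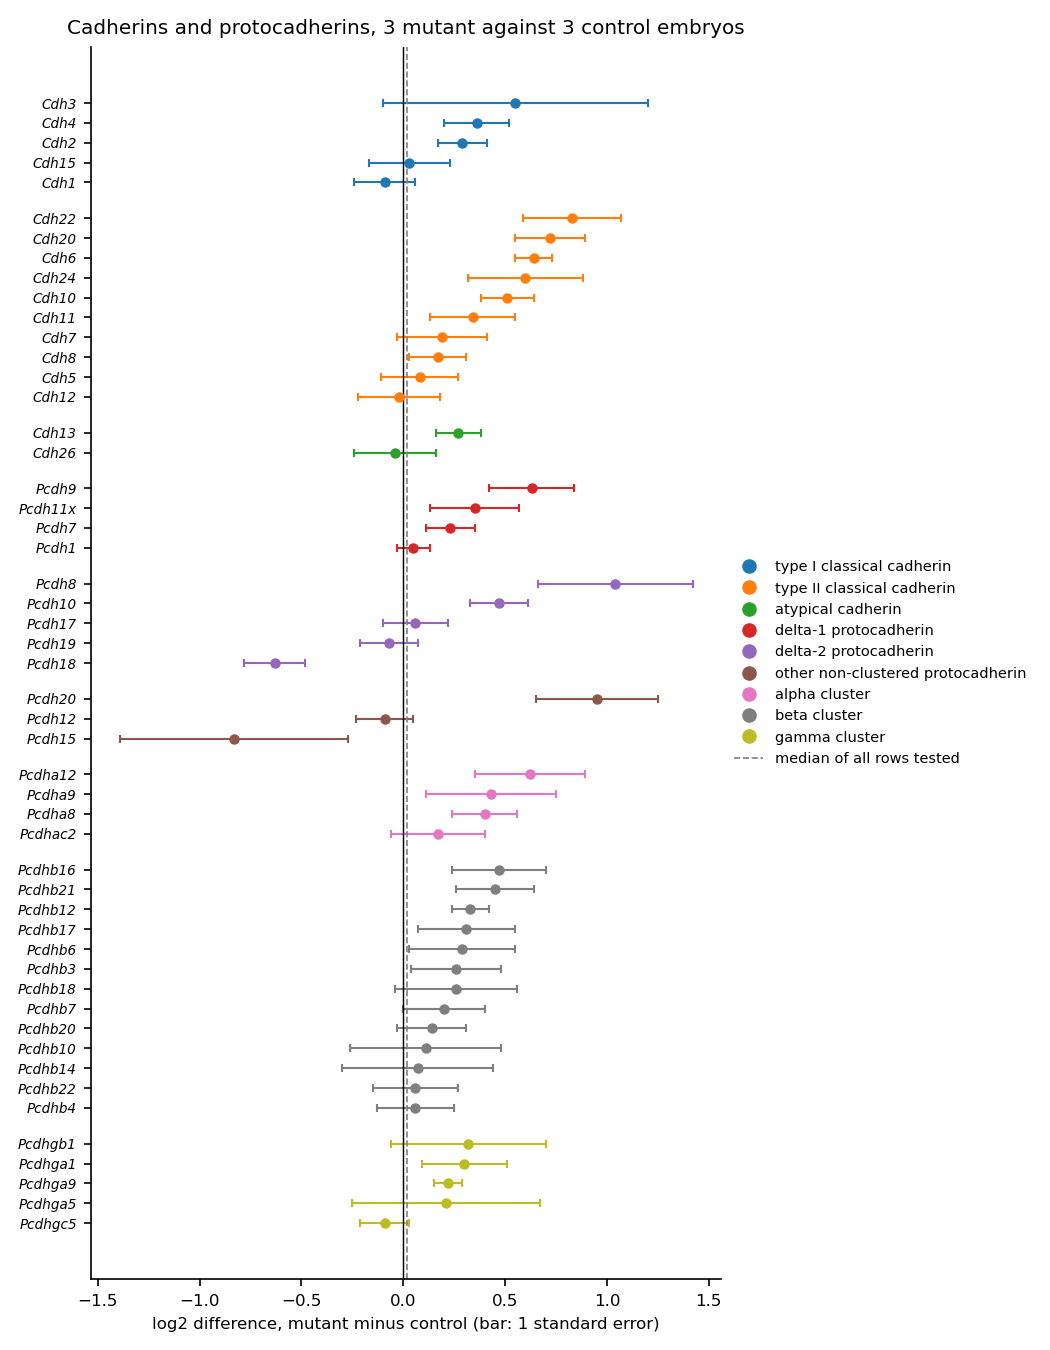
Log2 difference of mutant minus control (x axis) for each of the 51 genes, grouped by subfamily from top to bottom, with points for the estimate and bars for 1 standard error, 3 embryos a group. Most points lie right of 0, Pcdh8 and Pcdh20 lie farthest right at 1.04 and 0.95, and Pcdh18 at -0.63 is the only gene left of 0 whose groups did not overlap.

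The classical cadherins measured were 5 of type I and 10 of type II, and 13 of these 15 had a difference above 0, with a median of 0.34, or 12 of 15 under quantile normalization, median centring or the authors' log2 values. Among type I genes, Cdh2 encodes N-cadherin, the cadherin of the adherens junctions between cortical radial glia. Its level was 4.98, 5.18 and 5.27 in mutants and 4.70, 4.90 and 4.97 in controls. The lowest mutant lay just above the highest control, and within litters mutant exceeded control by 0.28, 0.29 and 0.30. The difference was 0.29 (SE 0.12, limma adjusted p = 0.294), and a second probe gave 0.27. Cdh4, or R-cadherin, which in the mouse embryo is found in the developing cortex, was at 2.13, 2.64 and 2.45 in mutants and at 2.18, 1.86 and 2.11 in controls. Its groups overlapped through mutant 1, and the difference was 0.36 (SE 0.16).

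Cdh1, or E-cadherin, found in surface epithelia, was dim at -6.35, -6.84 and -6.57 in mutants and -6.58, -6.34 and -6.58 in controls, and its difference of -0.09 (SE 0.15) turned to 0.21 with normexp background correction. Cdh3, or P-cadherin, was at -3.94, -5.65 and -5.84 in mutants and at -4.83, -5.72 and -6.54 in controls, where both members of litter 1 were highest in their group. Its difference of 0.55 (SE 0.65, without litter in the fit) was -0.05 without mutant 1, an omission that keeps its littermate control 1. Within litters 1, 2 and 3 the difference was 0.89, 0.07 and 0.69 (limma adjusted p = 0.246 with litter as a block). Cdh15, known from muscle as M-cadherin, differed by 0.03 (SE 0.20), or by -0.10 under quantile normalization.

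Cdh6 encodes a type II cadherin which, in the mouse embryo, marks the lateral ganglionic eminence beside a cortex that carries R-cadherin. It had the smallest p of the 51 genes. Its level was -0.26, -0.10 and 0.03 in mutants, against -0.69, -0.78 and -0.78 in controls, and the spread within each group was smaller than the gap between them. The difference was 0.64 (SE 0.09, limma adjusted p = 0.104), a fold of 1.56, and lay at 0.44, 0.68 and 0.81 within litters 1, 2 and 3. The adjusted p was 0.0423 with normexp background correction and 0.0436 with a variance trend and robust estimation, and in the authors' deposited table the gene had an fdr of 0.02818. Its probe sits at chr15:12963981-12964040 (mm9, minus strand), and whether coding or untranslated sequence lies there was not analysed here.

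Cdh22, a type II cadherin described in pituitary and brain, was at 0.82, 0.63 and 1.14 in mutants and at 0.30, 0.24 and -0.44 in controls. All mutants lay above all controls, and control 3, the array with little Dlx2 signal, was the lowest. The difference was 0.83 (SE 0.24, limma adjusted p = 0.212), and 0.59 without control 3. Its probe sits at chr2:164937057-164937116 (mm9, minus strand). Cdh20, another type II cadherin, was at -5.45, -5.00 and -5.37 in mutants and at -5.87, -5.85 and -6.26 in controls. The groups did not overlap and the difference was 0.72 (SE 0.17, limma adjusted p = 0.177), but it was 0.42 with normexp background correction and 0.28 with the authors' log2 values. Cdh10 was at -3.36, -3.16 and -3.31 in mutants and at -3.53, -3.87 and -3.96 in controls, again without overlap, and differed by 0.51 (SE 0.13, limma adjusted p = 0.191), or by 0.28 with the authors' log2 values.

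In the remaining type II cadherins the groups overlapped. Cdh24 differed by 0.60 (SE 0.28), and by 0.38 without control 3 and 0.27 with the authors' log2 values. Cdh11, a cadherin of mesenchyme, differed by 0.34 (SE 0.21), and by 0.14 without mutant 1 and 0.20 without control 3. Cdh11 was highest in mutant 1, at -0.51, against -1.14 and -1.04 in mutants 2 and 3 and -1.09, -1.09 and -1.52 in controls. The list of 10 meninges and head mesenchyme markers was also highest in mutant 1, with a summed level of 43.1, against 20.2 and 14.5 in mutants 2 and 3 and 19.9 to 29.8 in controls, and its part in the values of Cdh3 and Cdh11 was not tested. Cdh7 differed by 0.19 (SE 0.22), Cdh8 by 0.17 (SE 0.14) and Cdh12 by -0.02 (SE 0.20).

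Cdh5 encodes VE-cadherin of endothelial junctions and was at 0.26, 0.17 and -0.34 in mutants and at -0.26, 0.11 and -0.02 in controls. The lowest value was that of mutant 3, and the difference was 0.08 (SE 0.19). The list of 8 endothelial markers, which holds Cdh5 itself, was also lowest in mutant 3, with a summed level of 8.81, 7.94 and 5.79 in mutants against 7.20 to 8.50 in controls. In tissue RNA of this kind, fewer cells of a type and less RNA per cell cannot be told apart.

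Of the atypical cadherins, Cdh13 encodes T-cadherin, which has a lipid anchor in place of a transmembrane and cytoplasmic part. It was at -2.40, -2.19 and -2.04 in mutants and at -2.45, -2.51 and -2.48 in controls. Mutant 1 lay within 0.05 of its littermate, and the difference was 0.27 (SE 0.11, limma adjusted p = 0.291). Cdh26 differed by -0.04 (SE 0.20).

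**Figure D2:**
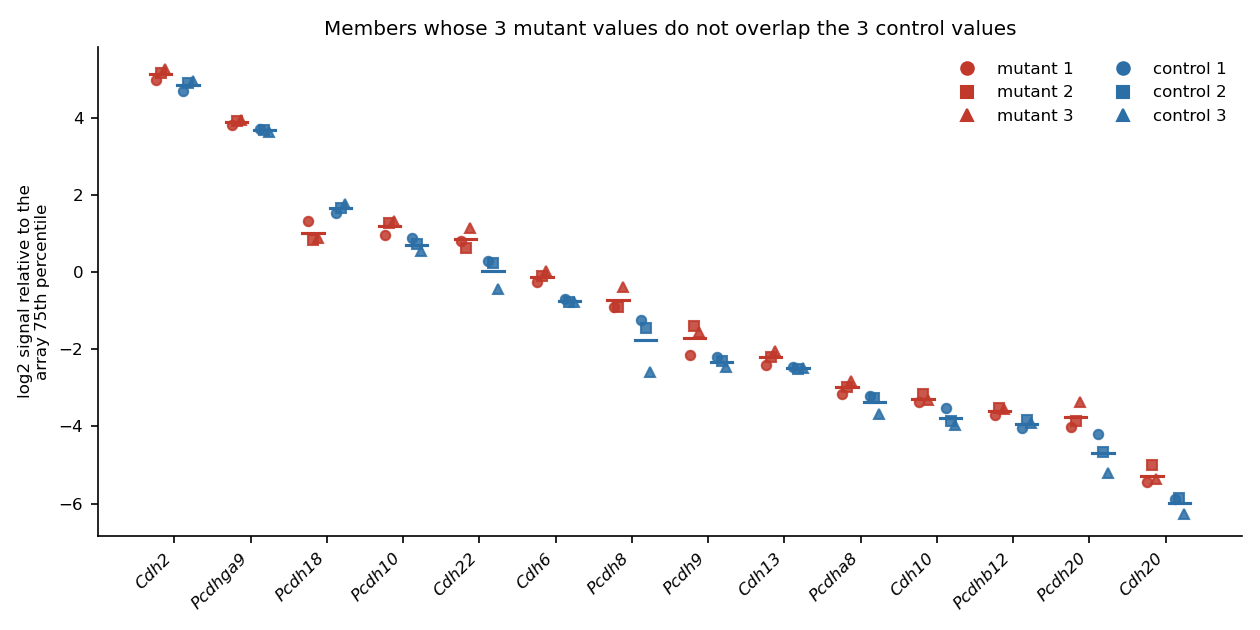
Level of the 14 genes whose mutant and control values did not overlap, as log2 signal relative to the array's 75th percentile (y axis), with 1 point per embryo, mutants left of controls for each gene and a bar at the group mean. The gap between groups is wide against the spread for Cdh6, and Pcdh18 alone has its mutants below its controls. Control 3 is the low point for Cdh22, Pcdh8 and Pcdh20, and also for Cdh20, Cdh10, Pcdh10, Pcdh9, Pcdha8 and Pcdhga9.

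The delta protocadherins held both the largest difference above 0 and the 1 lower gene whose groups did not overlap. Pcdh8, related to the paraxial protocadherin of gastrulation and induced in neurons by activity, was at -0.89, -0.90 and -0.39 in mutants and at -1.25, -1.44 and -2.59 in controls. All mutants exceeded all controls, with control 3 far below the other 2. The difference of 1.04 (SE 0.38, limma adjusted p = 0.266) was 0.62 without control 3, and within litters it was 0.36, 0.55 and 2.20. Its probe sits at chr14:80166728-80166787 (mm9, minus strand).

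Pcdh18 encodes a delta-2 protocadherin and ran the other way. Its level was 1.34, 0.85 and 0.90 in mutants, against 1.55, 1.68 and 1.77 in controls. Every mutant lay below every control, mutant 1 least so, and within litters the difference was -0.21, -0.83 and -0.87. The difference was -0.63 (SE 0.15, limma adjusted p = 0.179), and it was -0.64, -0.62 and -0.63 with normexp, quantile normalization and the authors' log2 values. In the authors' deposited table its fdr was 0.07484. Its probe sits at chr3:49547305-49547364 (mm9, minus strand).

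Pcdh10, a delta-2 protocadherin needed in the mouse for axon growth through the ventral telencephalon, was at 0.96, 1.27 and 1.34 in mutants and at 0.88, 0.74 and 0.54 in controls. The groups did not overlap, with mutant 1 within 0.08 of its littermate, and the difference was 0.47 (SE 0.14, limma adjusted p = 0.217). A second probe gave 0.79. Pcdh17 differed by 0.06 (SE 0.16), and Pcdh19, whose human gene is linked to an epilepsy of females, by -0.07 (SE 0.14).

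Among the delta-1 genes, Pcdh9 was at -2.15, -1.39 and -1.54 in mutants and at -2.21, -2.31 and -2.47 in controls. Mutants 2 and 3 stood apart from the controls and mutant 1 barely did. The difference was 0.63 (SE 0.21, limma adjusted p = 0.237), and 2 further probes gave 0.66 and 0.63. Pcdh11x differed by 0.35 (SE 0.22) with overlapping groups, but by 0.39, 0.23 and 0.43 within litters. Pcdh7 differed by 0.23 (SE 0.12), but 2 further, dimmer probes gave 0.06 and 0.71. Pcdh1 differed by 0.05 (SE 0.08).

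Pcdh20 was at -4.01, -3.86 and -3.37 in mutants and at -4.20, -4.66 and -5.22 in controls. The groups did not overlap, and control 3 was the lowest here as well. The difference of 0.95 (SE 0.30, limma adjusted p = 0.227) was 0.68 without control 3 and 0.65 with normexp background correction. The list of subpallial markers, of which 6 of 7 were tested, had a summed level of 8.44, 5.84 and 11.4 in mutants, and of 6.88, 5.79 and 1.17 in controls 1, 2 and 3, and its part in the values of Cdh22, Pcdh8 and Pcdh20 was not tested. Pcdh12, a protocadherin of endothelium, differed by -0.09 (SE 0.14). For Pcdh15, a component of hair cell tip links, 3 dim probes gave -0.83, 0.53 and -0.06, so that no direction can be given.

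Promoter sequences are shown for 4 of these genes: Cdh6, with the smallest p, Cdh22, with the largest difference among classical cadherins, and Pcdh8 and Pcdh18, which marked the upper and lower ends of the delta protocadherins. Each run is the 250 bases before the gene's start in RefSeq, build GRCm38.p6, 5′ to 3′ on the gene's strand, which was the minus strand for all 4. Capitals mark a GC box (GGGCGG on either strand) or a TATA box (TATAAA on either strand), and 2 GC boxes overlap in Cdh6. The positions are chr15:13173676-13173925 for Cdh6, chr2:165234738-165234987 for Cdh22, chr14:79771313-79771562 for Pcdh8 and chr3:49757317-49757566 for Pcdh18.
Cdh6: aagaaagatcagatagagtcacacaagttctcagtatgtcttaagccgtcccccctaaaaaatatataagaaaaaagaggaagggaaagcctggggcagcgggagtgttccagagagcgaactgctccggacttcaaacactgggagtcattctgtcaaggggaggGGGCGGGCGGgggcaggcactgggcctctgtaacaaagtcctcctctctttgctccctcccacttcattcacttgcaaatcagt
Cdh22: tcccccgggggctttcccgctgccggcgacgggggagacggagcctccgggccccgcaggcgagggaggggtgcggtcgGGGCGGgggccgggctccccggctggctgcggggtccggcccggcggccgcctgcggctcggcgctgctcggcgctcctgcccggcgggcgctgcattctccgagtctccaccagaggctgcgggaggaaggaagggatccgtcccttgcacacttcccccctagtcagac
Pcdh8: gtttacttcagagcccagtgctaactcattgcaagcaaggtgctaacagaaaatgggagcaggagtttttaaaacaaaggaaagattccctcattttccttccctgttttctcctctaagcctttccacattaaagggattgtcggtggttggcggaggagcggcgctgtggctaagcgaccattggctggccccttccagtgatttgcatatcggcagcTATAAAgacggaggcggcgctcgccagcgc
Pcdh18: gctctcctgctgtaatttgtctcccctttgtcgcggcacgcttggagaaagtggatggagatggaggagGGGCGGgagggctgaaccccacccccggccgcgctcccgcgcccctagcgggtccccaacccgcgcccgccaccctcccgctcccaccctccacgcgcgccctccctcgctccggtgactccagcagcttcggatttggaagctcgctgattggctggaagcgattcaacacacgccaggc
The windows of Cdh22 and Pcdh18 were GC-rich, at 77.6% and 68.0% with 30 and 23 CpG, whereas those of Cdh6 and Pcdh8 were both at 51.2% with 6 and 11 CpG. The median over all 32851 promoters of the RefSeq table was 52.4% with 6 CpG. A GC box stood in 3 of the 4 windows and in 32.7% of all promoters of this length, and a TATA box in that of Pcdh8 and in 12.4% of all. Because the series concerns Wnt signalling, a core of the TCF/LEF motif (CTTTGAA or CTTTGAT on either strand) was also searched, and these letters were in 0 of the 4 windows and in 7.48% of all. Of the 51 genes, 19 had a promoter in the table, 22 promoters in all. The TCF/LEF letters were in 2 of these, of Cdh7 and Pcdh7, the GC box in 9 and the TATA box in 2. These matches describe letters only.

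The clustered protocadherins gave signals closer to background than the other genes. Their median level was -4.84, and 16 of the 22 were well above background on all 6 arrays, against 28 of 29 others. The difference lay above 0 for 21 of the 22 genes, with a median of 0.26, against 22 of 29 with a median of 0.27 for the other cadherins and protocadherins. Under quantile normalization and with the authors' log2 values 16 of the 22 lay above 0, with a median of 0.10 and 0.11. The 22 genes are near-identical in part and lie within 847.2 kb of one locus from the first to the last probe, so values of single genes are uncertain.

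The clustered genes gave unlike values in the 3 mutants. Mutants 1 to 3 deviated from the control mean by a median of -0.13, 0.30 and 0.56, and controls 1 to 3 by 0.13, -0.01 and -0.04. Mutant 1 thus lay below its littermate while mutants 2 and 3 lay above theirs. Within litters 1, 2 and 3 the median difference was -0.30, 0.33 and 0.69, and 6, 20 and 21 of the 22 genes lay above 0. On slide 1 alone it was -0.30 and on slide 2 alone 0.55. The other 29 genes gave 0.16 on slide 1 and 0.33 on slide 2, and 0.17, 0.26 and 0.29 above the control mean in the 3 mutants. Mutant 1 was the lowest of the mutants for 19 of the 22 clustered genes, 86.4%, against 15 of the 29 others, 51.7%, and 38.7% of all rows. The 19 were all 13 beta genes, all 4 alpha genes and 2 of the 5 gamma genes, so the gamma genes, at 40%, were near the share of all rows. Clustered minus other medians came to -0.01 over all embryos and to 0.22 without mutant 1, where the clustered median was 0.45. Without mutant 3 the clustered median was 0.08.

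A list of 8 neuronal markers showed a like order of the mutants. Its median deviation came to -0.01, 0.46 and 0.51 for mutants 1 to 3 and to 0.07, -0.01 and -0.05 for controls 1 to 3, and its summed level was 75.1, 98.9 and 109 in mutants, against 73.8 to 75.2 in controls. All 8 had a difference above 0, and all 8 were lowest in mutant 1 among the mutants. The meninges and head mesenchyme list ran the other way in the mutants, with median deviations of 1.04, -0.24 and -0.66, against 0.14, 0 and -0.24 in controls. The part of either list in the values of the clustered genes was not tested.

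**Figure D3:**
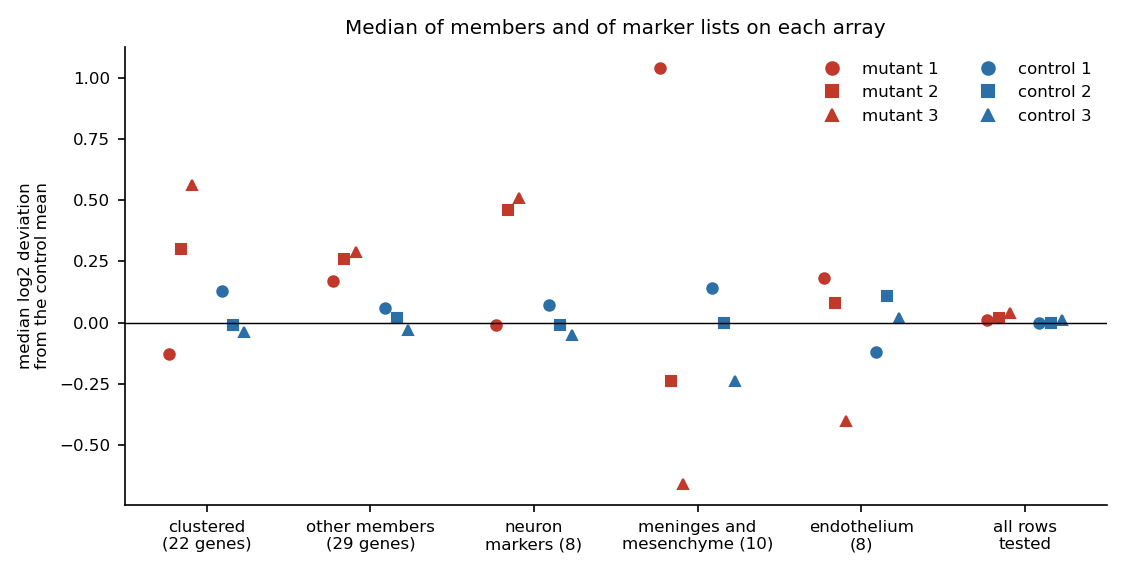
Median log2 deviation from the control mean (y axis) on each array for the 22 clustered genes, the 29 other genes, 3 marker lists and all rows tested, with mutants left of controls. In mutant 1 the clustered genes lie below the controls and the neuronal markers among them, and both are high in mutants 2 and 3. The mesenchyme list is at 1.04 in mutant 1, and all rows stay near 0.

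Within the alpha cluster all 4 genes had a difference above 0, also under each other scaling, with a median of 0.41, or 0.19 with the authors' log2 values. Pcdha8 was at -3.15, -2.98 and -2.81 in mutants and at -3.21, -3.25 and -3.67 in controls. The groups did not overlap and mutant 1 lay 0.06 above its littermate. The difference was 0.40 (SE 0.16, limma adjusted p = 0.291), and 0.25 without control 3. Pcdha12 was at -6.21, -5.58 and -5.10 in mutants and at -6.28, -6.17 and -6.28 in controls, overlapping through mutant 1, and its difference of 0.62 (SE 0.27) was 0.38 with normexp background correction and 0.20 with the authors' log2 values. Pcdha9 differed by 0.43 (SE 0.32), with 0.13 without control 3, 0.70 without control 1 and 0.18 with the authors' log2 values. Pcdhac2, a C-type isoform, differed by 0.17 (SE 0.23). The Pcdhac2 probe lies 41.5 kb after the gene's other probe, toward the exons that all alpha isoforms share, so it cannot be assigned to Pcdhac2 alone.

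All 13 beta genes, which have no shared constant exons, had a difference above 0, between 0.06 and 0.47 with a median of 0.26, but 9 of 13 did under quantile normalization (median 0.09) and 10 of 13 with the authors' log2 values (median 0.10). Pcdhb12 was the 1 beta gene without overlap, at -3.71, -3.51 and -3.56 in mutants and -4.05, -3.83 and -3.90 in controls. It was also even across litters, at 0.33, 0.32 and 0.34, for a difference of 0.33 (SE 0.09, limma adjusted p = 0.21), or 0.12 with the authors' log2 values. Pcdhb21 was at -3.19, -2.66 and -2.50 in mutants and at -3.16, -3.21 and -3.34 in controls. Mutant 1 sat among the controls and mutants 2 and 3 above them, and the difference was 0.45 (SE 0.19). Pcdhb16 showed the same at -5.67, -5.14 and -4.77 in mutants and -5.67, -5.64 and -5.67 in controls, with a difference of 0.47 (SE 0.23), which was 0.26 without mutant 3, 0.71 without mutant 1, 0.30 under quantile normalization and 0.13 with the authors' log2 values. Over the 13 beta genes, mutant 1 lay below the control mean for 11, mutant 2 above it for 12 and mutant 3 above it for 13.

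The gamma cluster was represented by 5 genes, 4 of them with a difference above 0, or 3 under quantile normalization and 2 with the authors' log2 values. Of the 5 genes 1 was well above background on all 6 arrays. That 1 was Pcdhga9, at 3.83, 3.93 and 3.95 in mutants and 3.71, 3.70 and 3.65 in controls. The groups did not overlap and each mutant exceeded its littermate, by 0.12, 0.23 and 0.30, for a difference of 0.22 (SE 0.07, limma adjusted p = 0.227). A second, dimmer probe gave 0.19, at -0.73, -0.84 and -0.97 in mutants and -0.94, -1.13 and -1.05 in controls. There the groups overlapped through mutant 3, the lowest of the mutants. The probe used lies 22.1 kb after that of Pcdhgc5, the last variable exon measured, toward the exons shared by all gamma isoforms, so the signal cannot be assigned to Pcdhga9 alone. Without this probe and that of Pcdhac2 the clustered median was 0.28. Pcdhga1 differed by 0.30 (SE 0.21), and Pcdhgb1, well above background on 1 mutant and 2 control arrays, by 0.32 (SE 0.38). Pcdhga5 differed by 0.21 (SE 0.46) and Pcdhgc5 by -0.09 (SE 0.12), or 0.18 with normexp background correction.

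**Figure D4:**
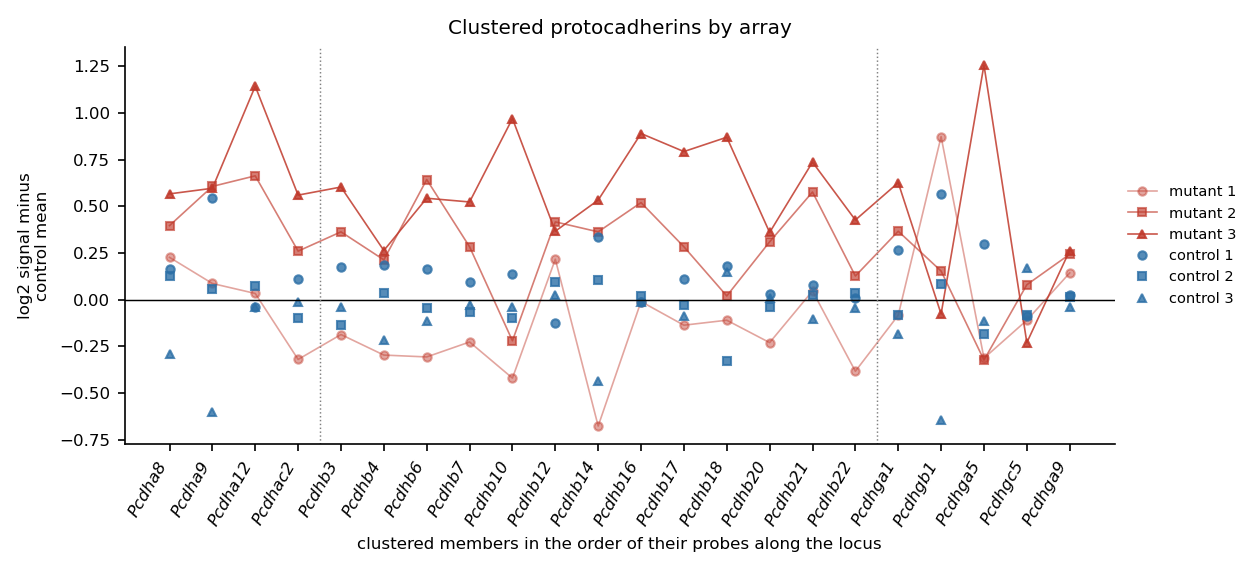
Log2 signal minus the control mean (y axis) for the 22 clustered genes in the order of their probes along the locus (x axis), 1 marker per embryo, with dotted lines between the alpha, beta and gamma clusters. Mutant 3 and mutant 2 lie mostly above 0 through the alpha and beta clusters, and mutant 1 lies below 0 for 11 of the 13 beta genes.

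Catenins and other partners of cadherins at the junction were measured for 14 of 14 genes on the list. Of these 0 passed the adjusted test, and the median difference was 0.12 against 0.02 over all rows. At an unadjusted p under 0.05, 1 was higher, against 9.44% of all rows, and 2 were lower, against 7.41%. Ctnnd2, a neuronal relative of p120-catenin, was at 1.04, 1.38 and 1.60 in mutants and at 0.92, 0.80 and 0.70 in controls. Its groups did not overlap, with a difference of 0.54 (SE 0.16, limma adjusted p = 0.212). Ctnna2, or alpha-N-catenin, which ties cadherins of neurons to actin, was at 1.24, 1.95 and 2.25 in mutants and at 1.36, 1.29 and 1.04 in controls, overlapping through mutant 1, with a difference of 0.59 (SE 0.27). Ctnnb1, which encodes beta-catenin, was at 3.39, 3.68 and 3.54 in mutants and at 3.79, 3.86 and 3.79 in controls, a difference of -0.27 (SE 0.09, limma adjusted p = 0.245). Pkp4, a p120-catenin relative, was also below every control in every mutant, with a difference of -0.25 (SE 0.07).

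Of 21 other genes of the superfamily or of junctions related to it, 15 were tested and 0 passed the adjusted test. At an unadjusted p under 0.05, 1 was higher, against 9.44% of all rows, and 0 were lower, against 7.41%. The median difference was 0.16 against 0.02 over all rows. Fat4, a giant cadherin that pairs with Dchs1 in planar polarity and cortical progenitors, was at -0.26, 0.19 and 0.24 in mutants and at -0.61, -0.35 and -0.43 in controls, without overlap, a difference of 0.52 (SE 0.16, limma adjusted p = 0.219). Celsr3, an adhesion receptor of axon guidance, was at 2.18, 2.43 and 2.88 in mutants and at 2.21, 2.05 and 1.95 in controls, a difference of 0.42 (SE 0.19) with mutant 1 among the controls. Clstn1, a calsyntenin that links membrane cargo to kinesin, differed by 0.18 (SE 0.09) and Fat2 by -0.44 (SE 0.22).

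The regulators of the clustered locus, which include Ctcf, cohesin subunits and the repressor Smchd1, were tested for 10 of 10 genes. Their median difference was -0.01, 5 of 10 lay above 0, and 0 passed the adjusted test. Dnmt3b, the DNA methyltransferase that methylates promoters of the locus, was at 0.68, 0.34 and 0.47 in mutants and at 0.64, 0.89 and 0.89 in controls. The groups overlapped through mutant 1, the difference was -0.31 (SE 0.12), and it was the 1 gene of the list at an unadjusted p under 0.05. Ctcf differed by -0.04 (SE 0.08) and Wapl by -0.16 (SE 0.07).

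Genes that act downstream of protocadherins in kinase and actin signalling were tested for 8 of 8, with a median difference of 0.00 and 0 past the adjusted test. Cyfip2, a subunit of the WAVE complex that many protocadherin tails bind, was at 2.73, 2.98 and 3.34 in mutants and at 2.51, 2.42 and 2.27 in controls. The groups did not overlap, and the difference was 0.62 (SE 0.17, limma adjusted p = 0.198). It was the 1 gene of this list at an unadjusted p under 0.05.

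In the authors' deposited table, 11483 of 27269 probes had an fdr. It was under 0.05 for 357, which is 1.31% of all 27269 probes and a larger share of those with an fdr. Among the probes used for the 51 genes, 37 had an fdr there and 1, that of Cdh6, was under 0.05. At the table's own p-value under 0.05 it listed 10 of the 51 as higher, against 6.39% of its probes, and 1 as lower, against 8.89%.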

How the data were processed

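Total RNA of 6 embryos was hybridised to Agilent 1-colour (Cy3) arrays. Spot intensity was extracted by the authors with Agilent Feature Extraction 10.7.3.1 on an mm9 grid, per the file headers, as a processed signal that is background-subtracted and not scaled between arrays. The authors' deposited table gives log2 values by group, log2 ratios, linear ratios and p-values for 27269 probes, and an fdr for 11483 of them. The sources used here do not give how those log2 values were normalized, and its column numbers do not follow the sample titles, so the columns were used by group. The submitters' processing notes name limma.

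Spots marked as outliers were dropped, replicate spots were averaged, and log2 processed signal was taken relative to the array's 75th percentile. A probe was kept if it had a value on each array and stood well above background on 3 or more of the 6, and the brightest probe of a gene was used (21334 rows). Probes were named through a RefSeq table by accession (26518) or by the deposited table (2874), and 10037 had no name. Groups were compared with limma 3.58.1 in R 4.3.3 (lmFit and eBayes, no trend, two-sided, Benjamini-Hochberg over all rows, threshold 0.05), checked on simulated data. Files were read with pandas 2.3.3 and numpy 2.4.6, and figures drawn with matplotlib 3.10.9, in Python 3.11.15.

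Members and gene lists were chosen with earlier results of these data known. Members named are the fixed non-clustered genes, the 10 other and 8 clustered genes of smallest p, and the brightest and dimmest of each part. Of members, Cdh15, Cdh26, Pcdhac2, Pcdhga5, Pcdhgc5, and of list genes Ctcf, Smchd1 and the markers, were named after their values were seen. Litters pair the embryos per the labels, and deviations from group means correlated at 0.308, 0.361 and 0.109 within litters, against -0.411 to 0.104 between them. Such deviations cancel out within a group, so positive values within litters force lower ones between them, and the contrast is partly built in. The alternatives were normexp (offset 50), quantile normalization, median centring, other filters and probe rules, a block for litter or for slide, robust variance with a trend, an adjusted p under 0.1, the authors' log2 values and omission of each embryo. Slide 2 alone, the table's second symbol column (which names 22 of the 51 probes used) and omission of the Pcdhac2 and Pcdhga9 probes that lie past the measured variable exons were added after seeing the data.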

Additional observations from a re-analysis of the deposited data

How the results depend on the processing

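The count over all rows, 7, was 121 with normexp, 15 with quantile normalization, 26 with the filter on all 6 arrays, 2 when probes of a gene were averaged, 143 with trend and robust variance, 22 with the authors' log2 values, 69 at an adjusted p under 0.1, and 0 without a filter, with litter as a replicate block, with slide as a block and on slide 2 alone. Without 1 embryo it was 0 to 1. Cadherins and protocadherins changed numbered 1 with normexp and 1 with trend and robust variance, both times Cdh6, and 0 in the other settings. Those at an unadjusted p under 0.05, 14, numbered 28 with normexp, 29 on slide 2 alone, 5 by the second symbol column (22 probes), and 7 to 24 without 1 embryo. With normexp 27 of these were higher and 1 lower, against 21.4% and 6.86% of all rows. On slide 2 alone 28 were higher and 1 lower, against 11.4% and 6.7%. The median of the other genes, 0.27, was 0.20 with quantile normalization, 0.17 with the authors' log2 values, 0.33 on slide 2 alone, 0.19 by the second symbol column, and 0.19 to 0.35 without 1 embryo. The clustered median, 0.26, was 0.55 on slide 2 alone and 0.08 to 0.45 without 1 embryo, and clustered minus other was 0.22 on slide 2 alone and -0.14 to 0.22 without 1 embryo. Signs turned for Cdh1 (0.21), Cdh12 (0.12), Pcdh15 (0.01) and Pcdhgc5 (0.18) with normexp, for Cdh15 (-0.10) and Pcdhga5 (-0.02) with quantile normalization, for Cdh15 (-0.02) with median centring, for Pcdhgb1 (0.00), Pcdhga5 (0.00) and Cdh15 (-0.02) with the authors' log2 values, and for Cdh12 (0.17), Cdh5 (-0.13), Cdh15 (-0.23) and Cdh26 (0.07) on slide 2 alone. Without 1 embryo the difference spanned 0 for Cdh1 (-0.21 to 0.04), Cdh3 (-0.05 to 0.99), Cdh5 (-0.03 to 0.27), Cdh12 (-0.23 to 0.15), Pcdh12 (-0.19 to 0.05), Pcdh17 (-0.04 to 0.19), Pcdh19 (-0.21 to 0.04), Pcdhgb1 (-0.01 to 0.60), Cdh15 (-0.18 to 0.19), Cdh26 (-0.17 to 0.17), Pcdhac2 (-0.03 to 0.41) and Pcdhga5 (-0.32 to 0.47). Both blocks turned 0 of the 41 named members, and the litter block left 10 higher and 1 lower at an unadjusted p under 0.05, against 12.3% and 7.56% of all rows. Of the turned values, the cause was not tested. Embryo number and, for the clustered genes, signals near background limit the precision of these values.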
